A study of Mus musculus with 5 samples.

Results

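The genes described here are 6 transcription factor genes that steer CD4 T cells toward the T helper lineages: Gata3, Rora, Tbx21, Maf, Ahr and Bcl6. They were taken by gene symbol from a table of 24084 genes, and all 6 were found there and passed the filter on low counts. The table holds RNA sequencing counts of regulatory T cells (Tregs, the suppressive CD4 T cells that depend on the factor FOXP3), sorted from mice aged 13 days. There are 3 libraries of skin-draining lymph node and 2 of skin. All 5 libraries, for which the labels name no treatment, are from the Foxp3-DTR/GFP line, given as Foxp3-DTR under strain, a line in which FOXP3-expressing cells carry a toxin receptor joined to a green fluorescent marker. The comparison asks how these regulators differ between Tregs of neonatal skin and of the draining nodes. How the cells were gated and how many animals gave each library is not stated in the labels, so a p-value here reflects only how these 5 libraries spread, part of which may be technical.

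T helper lineages are set by a small group of DNA-binding factors that switch on 1 cytokine program and hold back others. GATA3, a zinc finger protein, directs type 2 responses, T-bet (encoded by Tbx21), a T-box protein, directs type 1 responses, and BCL6, a zinc finger repressor, directs follicular helper cells. RORα (Rora) is a nuclear receptor that acts in type 17 cells and is also needed by group 2 innate lymphoid cells. The basic leucine zipper protein c-MAF (Maf) drives interleukin-10 and interleukin-4 transcription, and AHR is a receptor for aromatic compounds that enters the nucleus when bound. Tregs use the same factors: GATA3 and RORα are known from Tregs of skin and other barrier tissues, T-bet from Tregs at sites of type 1 inflammation, c-MAF and AHR from gut Tregs, and BCL6 from follicular regulatory cells.

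Gene counts per library ran from 12305644 to 14595018 in lymph node and were 10787378 and 10468795 in skin, with 12173 to 12540 genes detected in lymph node libraries and 9894 and 9192 in skin libraries. The Treg label was borne out by Foxp3, at 89.6 to 99.8 CPM (counts for each 1000000 of a library's total after TMM scaling) in lymph node and 78.0 and 118 CPM in skin, and by Cd4 and Il2ra, found in all 5 libraries. Foxp3, Cd4 and Il2ra are among 14 Treg identity genes. Of these, 7 (with Cd4) were lower in both skin libraries than in every lymph node library, and 3 were higher. Over all tested genes these patterns were seen in 33.5% and 16.8%. Mean CPM of Cd3e, Cd3d and Cd3g fell from 2032, 1301 and 1878 to 1146, 699 and 1110 in skin (edgeR adjusted p = 0.0545, 0.0659 and 0.118). DESeq2 called 3 of the 14 higher and 4 lower. The part of other cells in these differences was not tested. Markers of other cells differed too. Of 20 myeloid markers 16 were tested, and all 16 had a positive fold change. At an adjusted p under 0.05, edgeR called 7 of them higher in skin, DESeq2 14 and limma-voom 13. In either direction these tests called 7.70%, 28.5% and 19.5% of all tested genes. The summed level of the myeloid markers was 209 to 557 CPM in lymph node against 5560 and 8316 CPM in skin. In these bulk samples, fewer cells of a type and less RNA per cell cannot be told apart.

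Gata3, Rora and Maf were higher in skin Tregs, while Ahr, Bcl6 and Tbx21 did not pass the test. By edgeR's quasi-likelihood test with Benjamini-Hochberg adjustment over 11437 tested genes, 3 of the 6 passed an adjusted p of 0.05, all higher in skin, and 0 were lower (4 at an unadjusted p under 0.05, as were 29.5% of all tested genes). Over all tested genes the share past this threshold was 7.70%, with 2.40% higher and 5.30% lower. Among the 5742 tested genes with an average log2 CPM from 5 up, a cut that these 3 exceed, the shares were 4.16% higher and 2.72% lower. That set is not matched to these 3 in level. Both skin libraries exceeded every lymph node library for Gata3, Rora, Maf and Ahr, a pattern seen in 16.8% of tested genes, and both stood below every one for Bcl6, a pattern seen in 33.5%. The median log2 fold change of all tested genes was -0.21. The 3 calls did not survive the loss of any lymph node library, since edgeR then called 0 genes of the whole table (2361 to 2485 at an unadjusted p under 0.05). In those fits the adjusted p of Gata3, Rora and Maf ran from 0.113 to 0.115, with unadjusted p from 0.000960 to 0.00583.

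**Figure D1:**
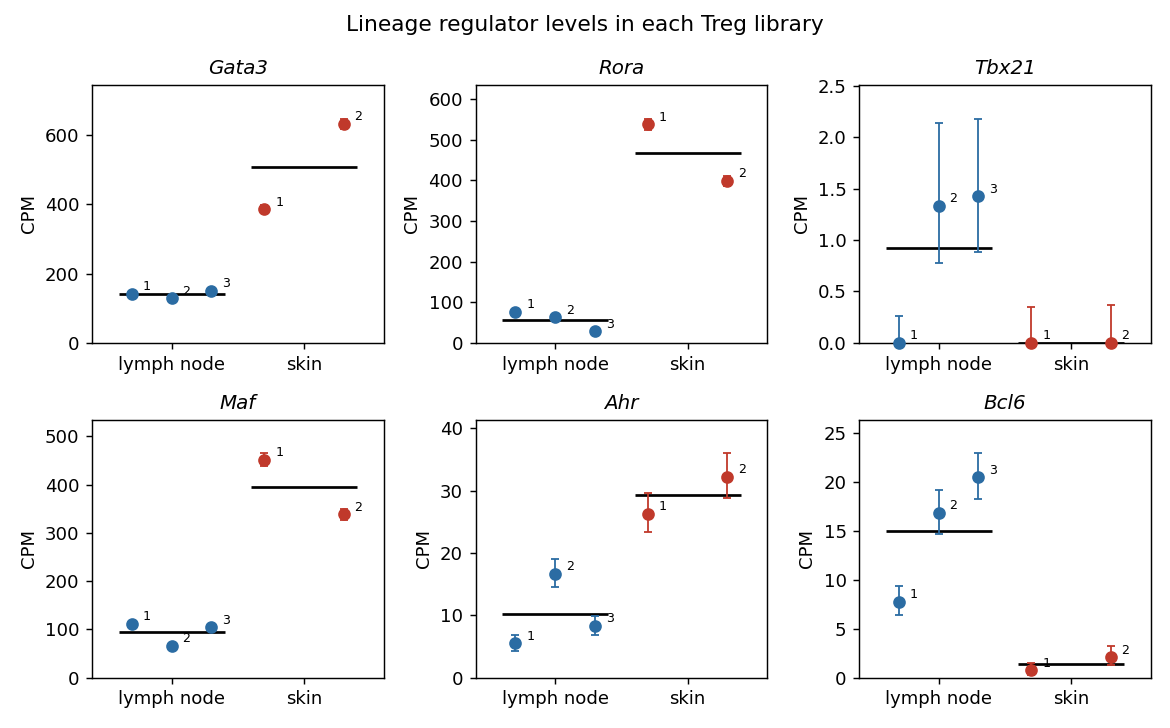
Level of each regulator in CPM (linear axis from 0) in the 3 lymph node and 2 skin libraries, numbered as in the text. Points are libraries, bars are exact 95% Poisson intervals that cover counting error only, and horizontal lines are group means. Gata3, Rora, Maf and Ahr lie higher in both skin libraries than in any lymph node library, and Bcl6 lies lower.

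Gata3 (chromosome 2, 9857078 to 9890034, minus strand, mm10) had the highest mean CPM of the 6 in both groups, although in skin library 1 Rora and Maf had more. It stood at 141, 129 and 149.7 CPM in lymph node libraries 1, 2 and 3 and at 385 and 631 CPM in skin libraries 1 and 2. The lymph node libraries were close to each other, with a highest to lowest ratio of 1.16, while the skin libraries differed from each other by 1.64-fold and both stood above them. The means were 139.9 ± 10.5 CPM (SD, n = 3) and 508 ± 174 CPM (SD, n = 2), a log2 fold change of 1.86 (SE 0.28, edgeR adjusted p = 0.0421). The lowest skin value was 2.58 times the highest lymph node value. Neighboring transcripts took few counts. The gene 4930412O13Rik on the other strand, whose exons share 0 bases with those of Gata3, had 0, 1 and 27 counts in lymph node and 180 and 1 in skin, against 4119 and 6323 counts of Gata3 in skin.

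Rora (chromosome 9, 68653786 to 69388246, plus strand) had the largest rise. Its level was 77.1, 63.5 and 28.2 CPM in the lymph node libraries and 538 and 399 CPM in the skin libraries. Lymph node library 3 was the low one, at less than the others by a highest to lowest ratio of 2.74, and the lowest skin value was 5.17 times the highest lymph node value. Means were 56.3 ± 25.2 CPM (SD, n = 3) and 468 ± 98.5 CPM (SD, n = 2), which is 8.33-fold higher in skin (log2 fold change 3.06, SE 0.48, edgeR adjusted p = 0.0434).

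Maf (chromosome 8, 115682942 to 115707794, minus strand) rose with them, from 112, 65.7 and 104 CPM in the lymph node libraries to 452 and 339 CPM in the skin libraries. Library 2 was the low one in lymph node, and no values overlapped between the groups. The means were 93.9 ± 24.7 CPM (SD, n = 3) and 395 ± 80.3 CPM (SD, n = 2), with a log2 fold change of 2.07 (SE 0.33, edgeR adjusted p = 0.0440). Macrophages also use Maf. Without Cd74, the most abundant of them, the myeloid markers summed to 16.7 to 38.4 CPM in lymph node and to 1888 and 2628 CPM in skin libraries 1 and 2. Single markers went either way between skin libraries 1 and 2, as did Mrc1 (362 and 138 CPM) and Csf1r (120 and 264 CPM). The part of these cells in the Maf result was not tested.

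Ahr (chromosome 12, 35497974 to 35535038, minus strand) was a low-level gene that did not pass the test. It had 5.48, 16.7 and 8.29 CPM in lymph node and 26.3 and 32.3 CPM in skin. The groups did not overlap, but the lymph node libraries spread over a ratio of 3.05, and the lowest skin value was 1.58 times the highest lymph node value. Means of 10.2 ± 5.84 CPM (SD, n = 3) and 29.3 ± 4.21 CPM (SD, n = 2) gave a log2 fold change of 1.53 (SE 0.84, edgeR adjusted p = 0.300). Counts were 78 to 213 in lymph node and 281 and 323 in skin.

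Bcl6 (chromosome 16, 23965052 to 23988852, minus strand) had the opposite sign and did not pass the test. Lymph node libraries 1, 2 and 3 had 7.80, 16.9 and 20.5 CPM, and skin libraries 1 and 2 had 0.749 CPM (95% counting interval 0.323 to 1.48) and 2.10 CPM (1.30 to 3.21), from 8 and 21 counts. Every lymph node library stood above both skin libraries, the lowest of them by 3.72-fold over the higher skin value. The means were 15.1 ± 6.55 CPM (SD, n = 3) and 1.42 ± 0.953 CPM (SD, n = 2), a log2 fold change of -3.40 (SE 1.14, edgeR adjusted p = 0.116). DESeq2 called it lower (adjusted p = 0.00387), in a test that called 28.5% of all genes. So did edgeR without skin library 1 (adjusted p = 0.0271, with 48.7% of genes called) and without skin library 2 (adjusted p = 0.0124, with 39.2% called), fits in which the lone skin library is assumed to vary like the lymph node ones. B cells also use Bcl6. Of 8 B cell markers 4 were tested and 0 passed (edgeR, 3 at an unadjusted p under 0.05, and 3 lower by DESeq2 and by limma-voom). The 8 markers summed to 130, 82.3 and 229 CPM in lymph node libraries 1, 2 and 3 and to 22.1 and 72.3 CPM in skin. Cd79b made up all of the skin sum, and 119, 61.7 and 120 CPM of the lymph node sum. The other 7 markers, with Ms4a1 among them, had no count in skin. Lymph node library 3 was the highest both for the sum of the B cell markers and for Bcl6. Library 1 stood above library 2 for that sum and below it for Bcl6. Without lymph node library 3 the log2 fold change of Bcl6 was -3.11 (edgeR adjusted p = 0.347, unadjusted p = 0.0928). The part of B cells in the Bcl6 result was not tested.

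Tbx21 (chromosome 11, 97098071 to 97115331, minus strand) was close to the counting limit everywhere. It had no count in lymph node library 1, 17 and 21 counts in lymph node libraries 2 and 3 (1.33 and 1.43 CPM) and no count in either skin library. A count of 0 over both skin libraries allows up to 3 counts, or 0.145 CPM, so the lymph node mean of 0.920 ± 0.798 CPM (SD, n = 3) was at least 6.35-fold higher, a bound that covers counting error only. Since 1 lymph node library was at 0 as well, the groups overlapped, and edgeR gave an adjusted p of 0.236.

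**Figure D2:**
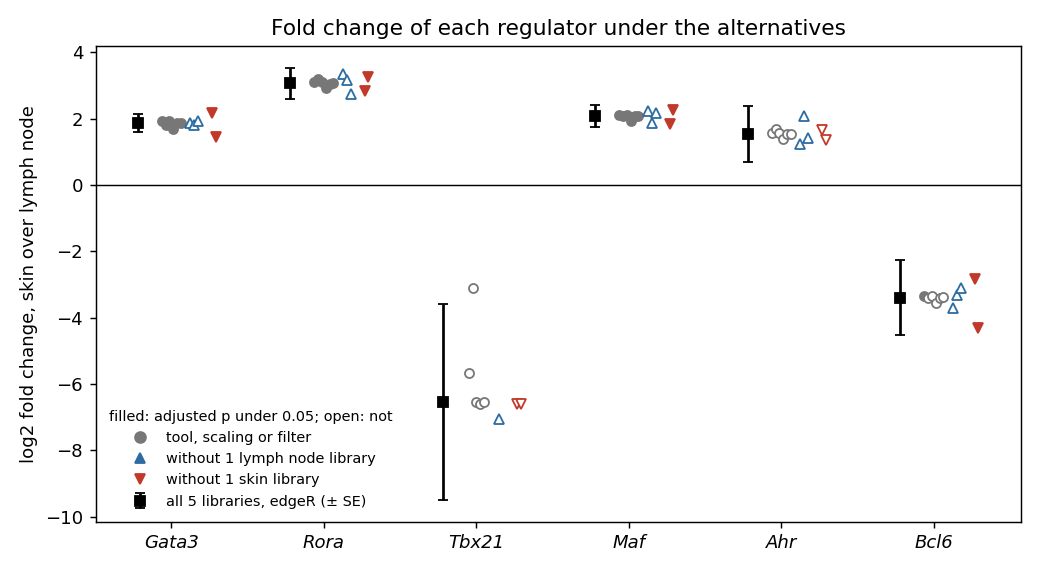
Fitted log2 fold change of skin over lymph node for each regulator with all 5 libraries (black, ± SE), with another tool, scaling or low-count filter (grey), and without 1 lymph node (blue) or 1 skin library (red). Filled grey, blue and red symbols have an adjusted p under 0.05. Each gene keeps its sign in the fits shown, and Gata3, Rora and Maf are open in the fits without a lymph node library. The fitted value of Tbx21, which has no count in skin, depends on the prior count and is not a bound.

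Levels of different genes were compared per kilobase of annotated exon. In lymph node Tregs the order by mean was Gata3 at 35.2 ± 2.63 CPM per kilobase, Maf at 11.4 (13.6, 7.97 and 12.6 by library), Rora at 4.30 ± 1.93, Bcl6 at 2.25 ± 0.977, Ahr at 1.65 ± 0.947 and Tbx21 at 0.370 ± 0.321 CPM per kilobase (SD, n = 3). Gata3 stood above Maf, and Maf above Rora, in each of the 3 libraries. Below them the order was not fixed, because Bcl6 was above Rora in library 3 and Ahr above Bcl6 in library 2. With the longest transcript as length Bcl6 was above Ahr in library 2 as well (4.29 and 3.01 CPM per kilobase), and so in each lymph node library. Tbx21 was the lowest in each library.

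In skin Tregs the order was Gata3 at 128 ± 43.7 CPM per kilobase, Maf at 48.0 ± 9.74, Rora at 35.8 ± 7.54, Ahr at 4.75 ± 0.683, Bcl6 at 0.212 ± 0.142 and Tbx21 at 0 (SD, n = 2), and it was the same in both libraries. Maf and Rora were neighbors whose ranges met (41.1 CPM per kilobase for Maf in library 2 and 41.2 for Rora in library 1), with Maf over Rora at a ratio of 1.33 and 1.35 within each library. In lymph node this ratio was 2.30, 1.64 and 5.86. Ahr and Bcl6, neighbors in lymph node, stood far apart in skin. The ratio of Ahr to Bcl6 per kilobase was 0.764, 1.08 and 0.439 in lymph node and 38.2 and 16.7 in skin, the latter resting on 8 and 21 counts of Bcl6. With the longest transcript as length it was 0.498, 0.702 and 0.286 in lymph node and 24.9 and 10.9 in skin. Relative to Foxp3, whose level differed by less than the spread between libraries (edgeR adjusted p = 0.954), Gata3 per kilobase stood at 1.81, 1.56 and 1.73 in lymph node and at 5.69 and 6.17 in skin. Rora stood at 0.301, 0.234 and 0.0989 times Foxp3 in lymph node and at 2.42 and 1.19 in skin, and Maf at 0.693, 0.384 and 0.580 and at 3.22 and 1.597. The 2 skin libraries were thus closer to each other for Gata3 relative to Foxp3 than in CPM, and further apart for Rora and Maf, whose CPM differed by 1.35-fold and 1.34-fold.

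**Figure D3:**
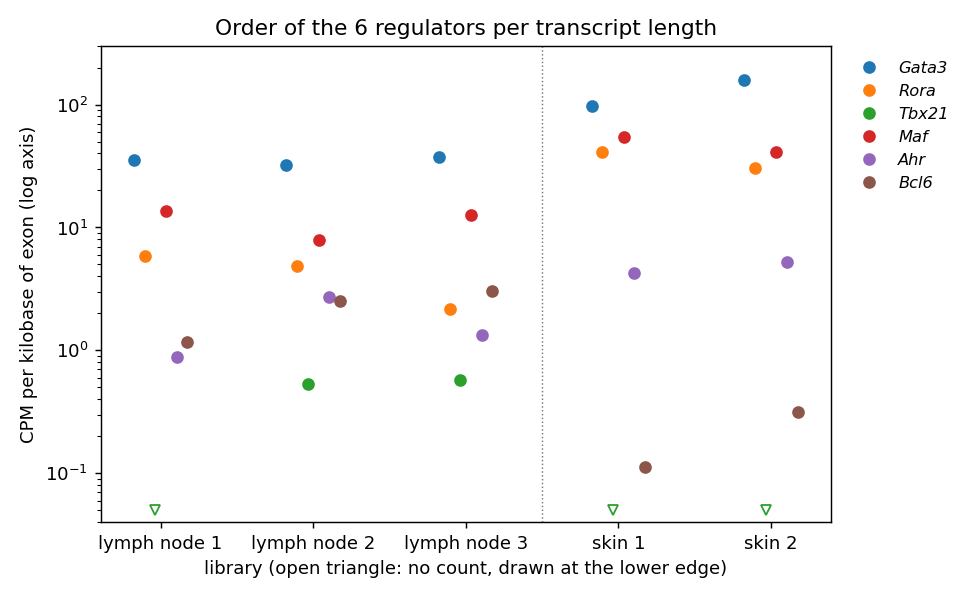
Levels per library in CPM per kilobase of annotated exon, on a log axis, with lymph node libraries left and skin libraries right of the dotted line. Gata3 is the highest and Tbx21 the lowest in each library, and Ahr and Bcl6 lie near each other in lymph node but 16.7-fold or more apart in skin.

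Among detected genes ranked per kilobase, Gata3 moved from the 86.1 to 87.5 percentile in lymph node to the 94.9 and 96.8 percentile in skin, Maf from 58.9 to 70.8 to 89.7 and 83.2, and Rora from 32.8 to 52.6 to 85.6 and 77.1. Ahr was at the 19.0 to 36.6 percentile in lymph node and the 34.5 and 38.8 percentile in skin. These ranks are within each library and over the genes with a count there, so the smaller number of genes detected in skin enters them.

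Bases before annotated RefSeq start sites (build GRCm38.p6) were searched for short motifs that these factors are known to bind, because Gata3 and Rora rose together and Bcl6 had the opposite sign. Start sites were matched for 4 of the 6 genes. For the zinc finger proteins of the family of GATA3 the letters were AGATAA, where the first base may also be T and the last one G. Nuclear receptors like RORα were searched by their shared core AGGTCA. The core for proteins with a T-box was AGGTGT. That for the large basic leucine zipper proteins such as c-MAF was TGCTGA. The short core for the aryl hydrocarbon receptor was GCGTG. The palindrome TTCNNNGAA, also with 1 more base in its middle, is bound by the STAT proteins that signal for cytokine receptors, and sites of BCL6 resemble it. In the windows printed here no match overlapped another. Both strands were searched in the 250 bases before each start, and matches are in capitals below. The windows lie on chr2:9878601-9878850 (Gata3, minus strand), chr9:68653536-68653785 (Rora, plus strand) and chr16:23981284-23981533 (the downstream of 2 Bcl6 starts, minus strand), each printed from 5′ to 3′ along its gene.
Gata3: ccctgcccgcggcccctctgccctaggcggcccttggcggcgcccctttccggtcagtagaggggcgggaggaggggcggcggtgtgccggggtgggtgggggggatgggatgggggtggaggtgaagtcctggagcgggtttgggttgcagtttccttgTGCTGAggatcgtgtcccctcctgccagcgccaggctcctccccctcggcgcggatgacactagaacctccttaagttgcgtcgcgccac
Rora: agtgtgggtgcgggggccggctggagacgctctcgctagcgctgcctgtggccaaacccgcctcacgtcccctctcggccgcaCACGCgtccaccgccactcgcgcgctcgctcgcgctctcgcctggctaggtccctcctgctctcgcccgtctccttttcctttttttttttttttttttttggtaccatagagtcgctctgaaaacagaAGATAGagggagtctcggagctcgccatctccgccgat
Bcl6: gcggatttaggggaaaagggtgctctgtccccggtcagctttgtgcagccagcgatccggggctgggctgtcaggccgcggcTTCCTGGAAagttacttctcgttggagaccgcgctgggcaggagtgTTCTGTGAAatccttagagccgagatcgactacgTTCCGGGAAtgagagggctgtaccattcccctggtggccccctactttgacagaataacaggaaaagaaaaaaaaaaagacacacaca

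The Bcl6 window held 3 of the STAT palindromes, TTCCTGGAA, TTCTGTGAA and TTCCGGGAA. A match of this palindrome occurs in 12.4% of all 32817 windows of the same length, and 3 or more matches in 0.0731% of them. The window at the other Bcl6 start held 1, TTCTCAGAA. The Gata3 window held 1 match to the core of the MAF proteins, which is found in 16.1% of windows. The Rora window held 1 match to the motif of the family of GATA3 (26.6% of windows) and, on its reverse strand, 1 match to the AHR core (28.1%). The cores of the nuclear receptors and of the T-box proteins, in 14.0% and 11.8% of windows, were not found in these windows. The Tbx21 window held no match. These are matches of letters, and nothing in the counts tests whether a factor binds there.

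Among 20 lineage regulators, of which 19 were tested, edgeR called Gata3, Rora and Maf higher and 0 lower (10 at an unadjusted p under 0.05), with a median log2 fold change of 0.22. DESeq2 called 6 higher and 3 lower, and limma-voom 3 higher and 1 lower, in tests that called 28.5% and 19.5% of all genes. The type 1 factor Eomes had at most 2.51 CPM in lymph node and no count in skin. Prdm1, which encodes the BCL6 antagonist BLIMP1, was at 11.6 to 33.9 CPM in lymph node and 69.3 and 206 CPM in skin, with no overlap but an edgeR adjusted p of 0.0721. Of the STAT genes named here none was called, with Stat6 at 423 ± 76.8 CPM and 238 ± 7.03 CPM (SD, n = 3 lymph node and n = 2 skin, edgeR adjusted p = 0.0872). Stat3 was at 112 to 134 CPM in lymph node and 123 and 147 CPM in skin (edgeR adjusted p = 0.777). Irf4 and Stat4 spread widely within skin. Irf4 was at 82.5 to 143 CPM in lymph node and 113 and 5.89 CPM in skin, and Stat4 at 213 to 267 CPM in lymph node and 5.24 and 109 CPM in skin (edgeR adjusted p = 0.669 and 0.307).

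Relatives of each member were looked at by family. Of 6 GATA genes, Gata1, best known from red cell and mast cell development, had 91.4, 129 and 133 CPM in lymph node and none in skin, which is at least 812-fold lower (edgeR adjusted p = 0.0224). Gata2, Gata4 and Gata5 had no count in any library, and Gata6 was counted in skin library 2 alone (35.2 CPM). Of 7 MAF genes 3 were tested and only Maf was called, higher. Of 5 ROR and REV-ERB genes 4 were tested, with Rora called and the REV-ERB gene Nr1d2 at 2.45 to 5.55 CPM in lymph node and 22.1 and 34.7 CPM in skin (edgeR adjusted p = 0.0986). The T-box list had 4 tested of 14 and 0 called (edgeR, 1 at an unadjusted p under 0.05, Eomes, and 0 by DESeq2), and its most abundant members were Mga and Tbx6. Among 10 tested genes of the AHR family of bHLH-PAS proteins edgeR called only Hif1a, higher, a call that ended without the low-count filter (adjusted p = 0.0533), while DESeq2 called 3 higher and 1 lower and limma-voom 3 higher. Among 8 tested zinc finger relatives of BCL6 0 were called (edgeR, 3 at an unadjusted p under 0.05, 1 higher and 2 lower by DESeq2). Zbtb32 was at 43.1 to 82.3 CPM in lymph node and 69.6 and 69.5 CPM in skin (edgeR adjusted p = 0.927), and Bach2, a repressor of effector differentiation, at 68.5 to 100.4 CPM in lymph node and 12.7 and 20.7 CPM in skin (edgeR adjusted p = 0.0589).

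The genes around each factor were counted in lists chosen with earlier results of these data known, so their counts describe and do not test a direction. For type 2 genes, which GATA3 serves, 2 of 12 tested were higher and 1 lower, with a median log2 fold change of 1.17. Ccr3, the eotaxin receptor gene, rose from 17.7 ± 5.74 CPM to 214 ± 97.1 CPM (edgeR adjusted p = 0.0402), and the amphiregulin gene Areg, 1 count over all lymph node libraries, reached 9.55 and 6.09 CPM in skin (edgeR adjusted p = 0.0488). Gfi1, a repressor that GATA3 works with, had 7.73 to 10.2 CPM in lymph node and none in skin, which is at least 63.0-fold lower (edgeR adjusted p = 0.0482). The type 2 cytokine genes Il5 and Il13 had no count in any library, which allows up to 0.0719 CPM over the lymph node and 0.145 CPM over the skin libraries. Il4 was near 0 (at most 2.27 CPM, in lymph node library 2). The interleukin-33 receptor gene Il1rl1 was high in 1 skin library, at 199 against 28.2 CPM (14.2 to 31.7 CPM in lymph node, edgeR adjusted p = 0.177). Of 10 genes for partners of GATA3, edgeR called only Tcf7 (DESeq2 called 1 higher and 3 lower, and limma-voom 3 lower), from 484 to 686 CPM in lymph node down to 1.97 and 8.19 CPM in skin (edgeR adjusted p = 0.0305).

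Type 1 genes, which T-bet serves, had 2 of 15 tested members higher and 0 lower by edgeR, 4 and 2 by DESeq2 and 2 and 2 by limma-voom, with a median of -0.13. Il18rap, a chain of the interleukin-18 receptor, rose from 13.1 ± 2.77 CPM to 187 ± 117 CPM, and Nkg7, a gene of cytotoxic granules, from 127 ± 38.5 CPM to 577 ± 171 CPM (SD, n = 3 and n = 2, edgeR adjusted p = 0.0411 and 0.0440). Ifng, the type 1 cytokine gene, had 1.83 to 4.07 CPM in lymph node and no count in skin (edgeR adjusted p = 0.0564). Cxcr3, a receptor gene that T-bet is known to activate, was at 67.0, 33.0 and 56.5 CPM in lymph node and 18.7 and 0 CPM in skin (edgeR adjusted p = 0.501).

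Type 17 genes had 3 of 11 tested members higher and 0 lower by edgeR, 3 and 0 by DESeq2 and 2 and 0 by limma-voom, with a median of 0.22. Ccr6, a chemokine receptor gene, went up from 109 ± 10.2 CPM to 587 ± 221 CPM, Hif1a, encoding an oxygen-sensing factor, from 107 ± 42.0 CPM to 484 ± 81.2 CPM, and Tmem176b from 10.9 ± 7.10 CPM to 379.6 ± 348 CPM (SD, n = 3 and n = 2, edgeR adjusted p = 0.0342, 0.0463 and 0.0484). Tmem176b is also a myeloid gene, and it followed the myeloid sum in being higher in skin library 2 (626 CPM) than in library 1 (133 CPM). Its source was not tested. Il17a, Il22 and Il23r had no count in any library and Il17f had 1.

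For targets of c-MAF in T cells, 5 of 8 tested were higher, 0 lower, and the median was 2.14. They were Icos, Tigit, Ctla4, Il10 and Ccr6, of which Il10, which encodes an anti-inflammatory cytokine, went from 18.4, 8.62 and 5.78 CPM to 284 and 496 CPM (edgeR adjusted p = 0.0340). Macrophages express Il10 as well, and myeloid markers were higher in both skin libraries. Of 11 tested AHR partners and targets edgeR called only Il10, while DESeq2 called 2 higher and 1 lower and limma-voom 2 higher. The classical AHR targets Cyp1a1 and Cyp1b1 had no count in any library, Tiparp was at 8.22, 13.8 and 2.45 CPM in lymph node and 21.8 and 43.5 CPM in skin (edgeR adjusted p = 0.254), and the repressor gene Ahrr had 16 counts in skin library 1 and no count elsewhere. The dimer partner Arnt was at 70.3 ± 26.3 CPM and 91.8 ± 23.8 CPM (SD, n = 3 and n = 2, edgeR adjusted p = 0.668). Its relative Arnt2 had 0.211, 3.29 and 0 CPM in lymph node and 152 and 54.6 CPM in skin without passing (edgeR adjusted p = 0.105).

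Follicular genes, which BCL6 serves, had 1 of 13 tested members higher, 3 lower and a median of -0.96. Icos rose, and Btla, an inhibitory receptor gene, Lef1 and Tcf7 fell, Btla from 294 ± 55.0 CPM to 20.6 ± 3.43 CPM (SD, n = 3 and n = 2, edgeR adjusted p = 0.0224). Cxcr5, the receptor that leads cells into follicles, was at 43.3, 49.4 and 53.8 CPM in lymph node and 1.78 and 0.0999 CPM in skin (edgeR adjusted p = 0.0653), and Pdcd1 at 296 ± 39.0 CPM and 260.1 ± 81.3 CPM (edgeR adjusted p = 0.738). In the list of BCL6 corepressors and antagonists, 2 of 11 tested were higher and 0 lower by edgeR, with 3 and 1 by DESeq2 and 2 and 1 by limma-voom. The edgeR calls were Ncor1, a corepressor, at a log2 fold change of 0.90, and Id2, at 3.34 (edgeR adjusted p = 0.0494 and 0.0381). The calls of all these lists ended without any 1 lymph node library, where edgeR called 0 genes. Without skin library 1, where edgeR called 48.7% of all genes, the counts became 3 higher and 3 lower of 13 type 2 genes, 3 and 5 of 15 type 1 genes, 5 and 4 of 11 type 17 genes, 4 and 6 of 16 follicular genes and 6 and 0 of 9 c-MAF targets. Without skin library 2, where it called 39.2%, they became 5 and 2 of 13, 5 and 4 of 15, 4 and 1 of 12, 3 and 5 of 14, and 6 and 0 of 9, in the same order. Without the low-count filter, where 2.21% of genes were called, Areg, Gfi1, Tmem176b, Hif1a and Ncor1 lost their calls (adjusted p = 0.0716, 0.0675, 0.0550, 0.0533 and 0.0686), which left 1 higher and 0 lower of 13 type 2 genes and 1 and 0 of 13 type 17 genes.

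**Figure D4:**
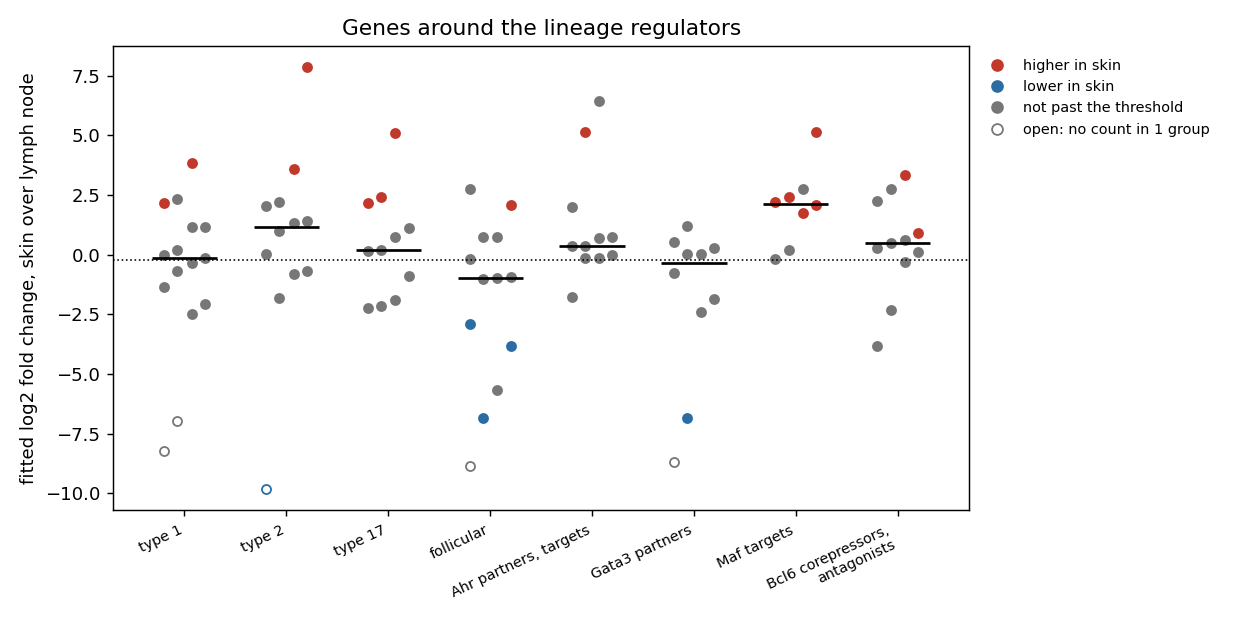
Fitted log2 fold change (skin over lymph node) of each tested gene in 8 lists around the regulators. Points are genes, colored by the edgeR call, bars are list medians and the dotted line is the median of all tested genes (-0.21). The c-MAF target list has its median at 2.14, and the follicular list at -0.96. Open points have no count in 1 group, and their fitted values depend on the prior count.

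Other cells that use the same factors were looked for by their markers. Group 2 innate lymphoid cells use Gata3 and Rora. Of 12 of their markers 6 were tested and 2, Klrg1 and Id2, were higher, summing with the rest to 482 to 490.4 CPM in lymph node and 2928 and 2446 CPM in skin. Il5, Il13, Hs3st1 and Kcnk1 had no count in any library of either tissue. Klrg1, Id2, Il1rl1 and Il7r of that list are Treg genes too. Keratinocytes use Gata3 and Ahr. Of 14 of their markers 7 were tested and 1, Krt14, was higher (68.9 and 109.5 CPM in skin, 0 in lymph node), with sums of 137 to 163 CPM and of 208 and 251 CPM. Itga6, which T cells also express, made up most of the lymph node sum (122 to 149 CPM, and 28.5 and 44.4 CPM in skin). Without it, a sum added after the values were seen, the keratinocyte markers came to 12.3 to 15.6 CPM in lymph node and 179 and 207 CPM in skin, where Krt17 (45.2 and 33.3 CPM) and Sfn (28.8 and 57.0 CPM) added to Krt14, with Krt1, Krt6a, Dsg3 and Lor at 0 throughout. Of 10 mast cell and basophil markers 3 were tested and 0 called (edgeR, 2 at an unadjusted p under 0.05, and 2 lower by DESeq2), with sums of 15.3 to 26.4 CPM in lymph node and 12.8 and 0 CPM in skin, and with Gata2, Mcpt4, Cma1 and Fcer1a at 0 throughout. Fibroblast, endothelial and melanocyte markers had 2 tested of 13 and 0 called (edgeR, 1 at an unadjusted p under 0.05, and 1 lower by DESeq2), with sums of 388 to 529 CPM in lymph node, mostly Pecam1, and 69.5 and 4.79 CPM in skin. CD8 T, NK and gamma delta T cell markers had 5 tested of 11 and 1 called, Cd8a, lower in skin (52.9 to 76.6 CPM, and 22.2 and 101 CPM in sum). Prf1 alone made up the 101 CPM of skin library 2. The gamma delta genes Trdc and Tcrg-C1 had no row and Sox13 was not tested, so these cells could not be assessed. Of 14 Treg identity genes, 3 were higher (Ctla4, Tigit and Ikzf2), 1 lower (Cd5) and 10 not past the threshold. The part of other cells in the Gata3, Rora and Ahr results was not tested.

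Genes with the most similar profile were taken by the smallest root mean square distance between log2 CPM profiles over the 5 libraries, each centered on its own mean, among 5608 well-counted genes (average log2 CPM from 5 up). Nearest to Gata3 were Zfp36, Camsap1 and Cdk2 (distances 0.0850, 0.0903 and 0.102, where the median gene was at 1.12), and nearest to Maf were Glrx, Hiatl1 and Klf6 (0.0808, 0.121 and 0.127, median 1.26). For Rora they were Neb, the chemokine receptor gene Ccr2 and Apaf1 (0.177, 0.308 and 0.316, median 1.78), and for Ahr Ints7, Usp42 and Pfkfb3 (0.102, 0.113 and 0.147, median 1.16). For Bcl6 they were Arhgap27os3, Zfp53 and Hsh2d (0.383, 0.383 and 0.408, median 1.89), and for Tbx21, at few counts, Cpsf3l, Sec24c and Zfp182 (0.888, 0.919 and 0.936, median 1.77). Zfp36, for example, ran at 174, 188 and 204 CPM in lymph node and 532 and 902 CPM in skin.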

How the data were processed

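The authors deposited whole-number counts per gene symbol in 1 column per library, and the header was read as shifted by 1 cell. The submitters' processing notes name TopHat2 2.0.12, HTSeq 0.6.1 and the build mm10, with options and strand setting not given in the sources used here. Per the labels' protocols, the kit was SMARTer for ultra-low RNA input. Of 24089 lines, 5 summary rows were left out. Reads not uniquely aligned took 64.5 to 72.0% of each library's counts, those outside genes 8.35 to 14.0% and ambiguous ones 0.400 to 0.433%. Transcripts of the opposite strand that have no row in the table read here overlap exons of Gata3 (155 bases), Rora (82), Maf (440), Ahr (127) and Bcl6 (21), and without strand their reads cannot be told apart from those of these genes.

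Counts were fitted with edgeR 4.0.16 (R 4.3.3) using filterByExpr (minimum count 10), TMM scaling and the quasi-likelihood F test of skin against lymph node. The threshold was an adjusted p of 0.05. The SE is the log2 fold change divided by the square root of F. The fit was also run on simulated counts. Its pass limits were set only for a dispersion of 0.05, below the common dispersion of these data (0.843), so they do not test the calls reported here. No permutation p is given because 0.1 is the smallest that 2 libraries against 3 allow. CPM use TMM-scaled library sizes, and a count of 0 allows 3 counts. Intervals cover counting error only, since PCR copies are not independent molecules. Positions and exon lengths come from GENCODE M21 (GRCm38, which is mm10). Promoter sequences are from RefSeq.

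The members and gene lists were chosen with earlier results of these data known. Named genes were the 6 members, up to 6 called genes of each list (or the 2 most abundant where 0 were called) and the 3 nearest profiles for each member. Other list genes, such as Il5, Il13, Cxcr3, Cxcr5, Prdm1 and Arnt2, were named after their values were seen. Alternatives were DESeq2 1.42.0, limma-voom 3.58.1, other scalings and filters, each library left out, a replicate block, and another length. Some genes of these lists are not reported here.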

Additional observations from a re-analysis of the deposited data

How the results depend on the processing

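Gata3, Rora and Maf stayed higher in skin under all 12 alternatives. They stayed past the threshold in the 6 that changed tool, scaling or filter, of which DESeq2 called 28.5% and limma-voom 19.5% of all genes. With 1 skin library left out, the log2 fold change was 1.46 to 2.17 for Gata3, 2.82 to 3.25 for Rora and 1.85 to 2.26 for Maf. With another tool, scaling or filter their adjusted p ran up to 0.0447, 0.0453 and 0.0468. They lost the call without any 1 lymph node library and with the replicate number as a block. Ahr was never called in 12 alternatives (adjusted p from 0.0683) nor Tbx21 in the 9 that tested it, and Bcl6 was called in 3 of 12.

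The number of genes called was 881 in the reported fit, 3262 by DESeq2, 2231 by limma-voom, 315 without a low-count filter and 1867 with the stricter one, and 0 to 6065 when 1 library was left out. The members called numbered 3, and 0 to 4 when 1 library was left out. With the replicate block 21 genes and 0 members were called (edgeR, 772 and 3 at an unadjusted p under 0.05). The numbers give 2 shared pairs only, and deviations of same-numbered libraries correlated across genes at -0.03 and -0.02. Since 2 skin libraries deviate from their mean by equal and opposite amounts, these values cannot tell whether same-numbered libraries were paired. The median log2 fold change of all genes, -0.21, moved by -0.15 with upper quartile scaling, -0.64 with limma-voom, -0.24 without the filter, -0.64 with the block, -0.84 without skin library 1 and -0.37 without skin library 2, and by less than 0.1 elsewhere. With the longest transcript as length, levels in lymph node were 43.5 CPM per kilobase for Gata3, 14.8 for Maf and 3.83 for Bcl6, and in skin 62.2 for Maf and 0.362 for Bcl6.

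Depth limits Tbx21 and, in skin, Bcl6. With 2 skin libraries the spread within skin rests on 1 difference.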
